A study of Mus musculus with 11 samples.

Results

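The mRNA levels of 8 sodium channel subunit genes are described here, out of 23284 genes in the table: the alpha subunit genes Scn1a, Scn3a, Scn4a, Scn7a, Scn8a and Scn9a and the beta subunit genes Scn2b and Scn3b. They were taken by gene symbol and had been chosen from the knock-out against wild-type values of these same libraries. Their differences are therefore given as a description, with no test. The table holds 6 further subunit genes that were not on that list, of which 4 had enough reads to be tested. Voltage-gated sodium channels open when a membrane is depolarised and carry the inward current of the action potential. A large alpha subunit forms the pore, and small beta subunits with an immunoglobulin-like domain tune its gating and hold it at the surface. In the retina, ganglion cells and many amacrine cells fire sodium spikes, some bipolar cells carry sodium currents, and photoreceptors answer light mainly with graded potentials.

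The samples were retinas of mice at postnatal day 21, in 5 wild-type libraries and 6 Nrl knock-out (Nrl-/-) libraries. Nrl encodes the transcription factor that photoreceptor precursors need to become rods, and photoreceptors without it take on the character of short-wavelength cones. Strain, sex, the structure of the knock-out allele and the animals behind the replicates go unstated in the labels, so the spread between libraries may be partly technical. Values are normalized counts, that is reads per gene divided by a size factor per library. Libraries held 14907613 to 20685840 reads in genes, and Nrl itself lay at 34738 to 39490.5 normalized counts in wild type and at 46.0 to 59.2 in the knock-out.

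The 10 rod markers summed to between 572264 and 655647 normalized counts in wild type and between 7628 and 8905 in the knock-out, while the 10 cone markers went from between 23951 and 27425 to between 216433 and 266034. In whole tissue of this kind, fewer cells of a type and less RNA per cell cannot be told apart. Of all 14584 genes tested, 46.3% were called different by limma at a Benjamini-Hochberg adjusted p of 0.05, with 23.6% above and 22.7% below wild type, and for 30.9% the libraries of the genotypes did not overlap. By the same rule 6 of the 8 members were called, 5 lower and 1 higher, and for 5 the genotypes did not overlap; since this comparison chose them, nothing is read from these counts.

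Scn4a, the alpha subunit gene best known from skeletal muscle, had by far the lowest knock-out level relative to wild type of the 8 members. Its normalized counts were 549.9, 549, 572, 518 and 519 in wild-type replicates 1 to 5 and 98.4, 143, 149.8, 121, 113 and 111 in knock-out replicates 1 to 6. The lowest wild-type library (518.2) lay far above the highest knock-out library (149.8), so the genotypes were widely separated. The knock-out mean was 22.7% of the wild-type mean, a log2 fold change of -2.15 (SE 0.10) on the log2(normalized count + 1) scale. Among all tested genes, Scn4a had the 114th lowest log2 fold change.

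The tested genes with profiles most like that of Scn4a over the 11 libraries were Sdc3, which encodes a cell-surface heparan sulphate proteoglycan, and Hcls1, a gene best known from blood cells. Both had a Pearson correlation of 0.995 with it on the log2 scale, a measure that takes in the difference between the genotypes as well as the spread within each. Sdc3 went from 4336 ± 112 (SD, n = 5) to 1573 ± 76 (SD, n = 6) normalized counts, a log2 fold change of -1.46, and Hcls1 from 734 ± 32 to 159.8 ± 24.0, a log2 fold change of -2.20. The rod markers as a list had a median log2 fold change of -8.00, so Scn4a kept a larger part of its wild-type level than the median rod marker.

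Muscle genes were measured beside Scn4a. The 14 skeletal muscle markers summed to between 669.7 and 803 normalized counts in wild type and between 650.03 and 724 in the knock-out, ranges that overlap. Of the 6 that were tested none was called (median log2 fold change -0.32, against -0.01 over all tested genes). The fast myosin heavy chain genes Myh1, Myh2 and Myh4, which define skeletal muscle fibres, had means of at most 0.194 normalized counts in wild-type and 0.503 in knock-out libraries. Cacna1s, the muscle calcium channel gene, made up most of the sum, with 561 ± 35 and 519.7 ± 17.9.

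The segment around the annotated start of Scn4a is shown with that of Scn7a because these are the members with the lowest and the highest knock-out level relative to wild type. Each runs from 250 bases before the start to 50 after it, is read 5′ to 3′ on the gene's strand, and comes from RefSeq on build GRCm38.p6, while the submitters' processing notes name mm9. Capitals mark matches on either strand to TAATCC, the core of sites bound by CRX and OTX2, and to TGCTGA, the core of the element bound by NRL and other Maf factors. Scn4a lies at chr11:106349341-106349640 and Scn7a at chr2:66784861-66785160, both on the minus strand.
Scn4a: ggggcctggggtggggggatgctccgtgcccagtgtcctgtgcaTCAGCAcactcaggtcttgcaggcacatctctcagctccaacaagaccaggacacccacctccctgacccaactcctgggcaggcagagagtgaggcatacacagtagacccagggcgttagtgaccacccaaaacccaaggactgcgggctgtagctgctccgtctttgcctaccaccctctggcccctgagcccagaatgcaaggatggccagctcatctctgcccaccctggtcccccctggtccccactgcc
Scn7a: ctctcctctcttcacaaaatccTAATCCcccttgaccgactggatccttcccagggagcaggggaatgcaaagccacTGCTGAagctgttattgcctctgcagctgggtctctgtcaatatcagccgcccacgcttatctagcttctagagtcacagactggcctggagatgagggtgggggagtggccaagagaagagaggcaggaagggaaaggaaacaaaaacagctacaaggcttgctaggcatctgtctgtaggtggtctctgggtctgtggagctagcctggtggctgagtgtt
Scn4a holds TGCTGA on the reverse strand, starting at base 45 of the segment, and no TAATCC. Scn7a holds TAATCC at base 23 and TGCTGA at base 78, and these do not overlap. Of all 32851 such segments in the table, 7.06% hold TAATCC and 19.5% hold TGCTGA. Of the 7 segments found for 6 of the members, those of Scn1a, Scn2b and Scn9a hold neither motif, and of the 2 of Scn8a, 1 holds TGCTGA at base 269. A match of letters in a segment is no evidence that a factor binds there.

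Scn7a encodes an atypical channel, best known from glia and other cells that sense the sodium level, which does not open to depolarisation as its relatives do. It was the member that stood higher in the knock-out. Its normalized counts were 413, 475, 416, 431 and 478 in wild-type replicates 1 to 5 and 635, 611, 542, 684, 627 and 622 in knock-out replicates 1 to 6. The highest wild-type library lay under the lowest knock-out library. The log2 fold change was 0.49 (SE 0.06), and the knock-out mean was 140.1% of the wild-type mean.

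Cell types in which Scn7a may be found were measured too, and their part in its difference was not tested. Of 13 Müller glia and astrocyte markers 8 rose and 1 fell (limma, median log2 fold change 0.31), and their sum went from between 107073 and 115823 to between 120459 and 138052. The marker that fell was the most abundant, Glul, from 48307 ± 1213 to 40148 ± 1936, and Rlbp1, Slc1a3, Dkk3 and Pax2 were not called. The largest gains in counts were those of Clu (11110 ± 397 to 25026 ± 1542) and Apoe (8817 ± 967 to 17758 ± 1490). Of 9 oligodendrocyte and Schwann cell markers 3 were tested, and Mbp, which encodes a myelin protein, rose (0.35, adjusted p = 4.22e-05), with sums of 776 to 920.3 and 1009 to 1179. Sox10, which defines Schwann and oligodendrocyte lineage cells, stayed under 10 normalized counts in every library. Of 11 endothelial and mural cell markers 2 rose and 2 fell, and their sums overlapped (5497 to 6642 and 6185 to 7136). All 10 microglia markers rose, with sums of 1216 to 1563 and 3552 to 4927. The gene with the profile nearest to that of Scn7a was Fam13b (Pearson correlation 0.976; log2 fold change 0.20).

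**Figure D1:**
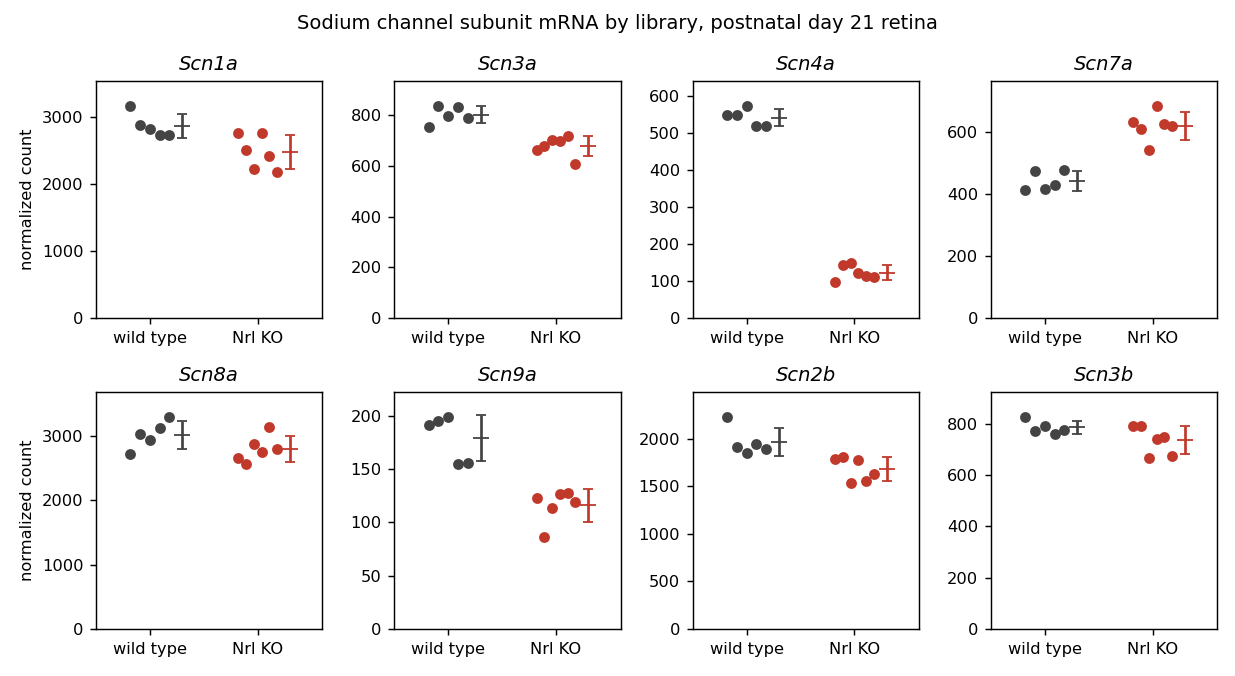
Normalized counts of the 8 members in each library; each point is 1 library, the horizontal mark and bar beside them are the mean and SD (n = 5 wild type, grey; n = 6 Nrl knock-out, red), and every axis starts at 0. Scn4a is separated most widely (518.2 to 572 against 98.4 to 149.8), Scn7a is higher in the knock-out, and the points of Scn1a, Scn3b and Scn8a overlap.

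Scn9a, the alpha subunit gene of sensory and sympathetic neurons and of pain signalling, was the least abundant member. Its normalized counts were 192, 195, 199, 154.9 and 156 in wild-type replicates 1 to 5 and 123, 86.3, 114, 127, 128 and 119.5 in knock-out replicates 1 to 6. The genotypes did not overlap, and in each genotype some libraries stood apart: wild-type replicates 4 and 5 lay under the other 3, and knock-out replicate 2 lay under all others. The log2 fold change was -0.62 (SE 0.11), and without knock-out replicate 2 it was -0.54. These values rest on 875 wild-type and 731 knock-out reads in all. St6galnac5, which encodes a sialyltransferase of gangliosides (Pearson correlation 0.954), and Rpp40, which encodes a subunit of ribonuclease P (0.948), had the most similar profiles, with log2 fold changes of -0.81 and -0.88.

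Scn3a, the alpha subunit gene typical of the immature rodent brain, lay at 754, 834, 796, 834 and 790.1 normalized counts in wild-type replicates 1 to 5 and at 663, 677, 700.03, 698, 718 and 606 in knock-out replicates 1 to 6. The genotypes did not overlap, with knock-out replicate 6 lowest. The log2 fold change was -0.24 (SE 0.05). Its nearest profiles were those of Pmfbp1 (Pearson correlation 0.953; log2 fold change -0.49), with at most 30.06 normalized counts on average, and Tmem194 (0.943; -0.32).

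Scn1a and Scn8a, the main alpha subunit genes of mature central neurons, had the highest normalized counts of the members, a value that grows with transcript length. Scn1a is known from inhibitory neurons and retinal ganglion cells, and its loss of function in humans gives a severe childhood epilepsy. Its normalized counts were 3161, 2889, 2819, 2737 and 2739.9 in wild-type replicates 1 to 5 and 2768, 2518, 2227, 2759, 2419 and 2184 in knock-out replicates 1 to 6. Knock-out replicates 1 and 4 reached into the lower end of the wild-type range, so the genotypes overlapped (log2 fold change -0.21, SE 0.06). Scn8a, whose channel gathers at the axon initial segment and nodes, lay at 2715, 3030.4, 2941, 3120.2 and 3294 in wild type and at 2658, 2558, 2869, 2756, 3133 and 2799.7 in the knock-out. Most of its knock-out libraries lay within the wild-type range (log2 fold change -0.11, SE 0.05).

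Scn2b encodes a beta subunit that is joined to the alpha subunit by a disulphide bond. Its normalized counts were 2228, 1913, 1855, 1941 and 1889 in wild-type replicates 1 to 5 and 1791, 1813, 1533, 1779.7, 1556 and 1628 in knock-out replicates 1 to 6. The genotypes did not overlap, but the lowest wild-type and the highest knock-out library lay close together (1855 and 1813). The log2 fold change was -0.22 (SE 0.06), and -0.18 without wild-type replicate 1. Ncs1, which encodes a neuronal calcium sensor (Pearson correlation 0.987; log2 fold change -0.23), and Tspyl4 (0.984; -0.16) had the nearest profiles.

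Scn3b encodes a beta subunit that binds without such a bond. It lay at 825, 772, 792, 759 and 776 in wild type and at 789.9, 791, 666, 741, 749 and 672 in the knock-out, with overlapping genotypes (log2 fold change -0.10, SE 0.06).

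The scaling of the libraries bears on all of these values. When each library was scaled to its total of reads in place of the authors' size factors, the median over all tested genes shifted by 0.14 on the log2 scale, to 0.13. Scn3b then stood at 0.04 and Scn8a at 0.02, so their direction flipped, and Scn1a (-0.08), Scn2b (-0.09) and Scn3a (-0.11) lay nearer to 0. Scn4a (-2.01), Scn9a (-0.49) and Scn7a (0.62) kept their direction. Relative to the median of all genes, the differences of all 8 members were the same to 2 decimals under both scalings. Among them were Scn1a (-0.21), Scn3a (-0.24), Scn3b (-0.09), Scn8a (-0.10) and Scn4a (-2.14). Total scaling moves every gene by nearly the same amount, so this sameness follows from the arithmetic and is no check of the values. The authors' deposited table gives log2 fold changes from -2.12 for Scn4a to 0.48 for Scn7a. The median log2 fold change of the 8 members was -0.22, against -0.01 over all tested genes. Since the members were chosen from this same comparison, nothing is read from that gap.

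**Figure D2:**
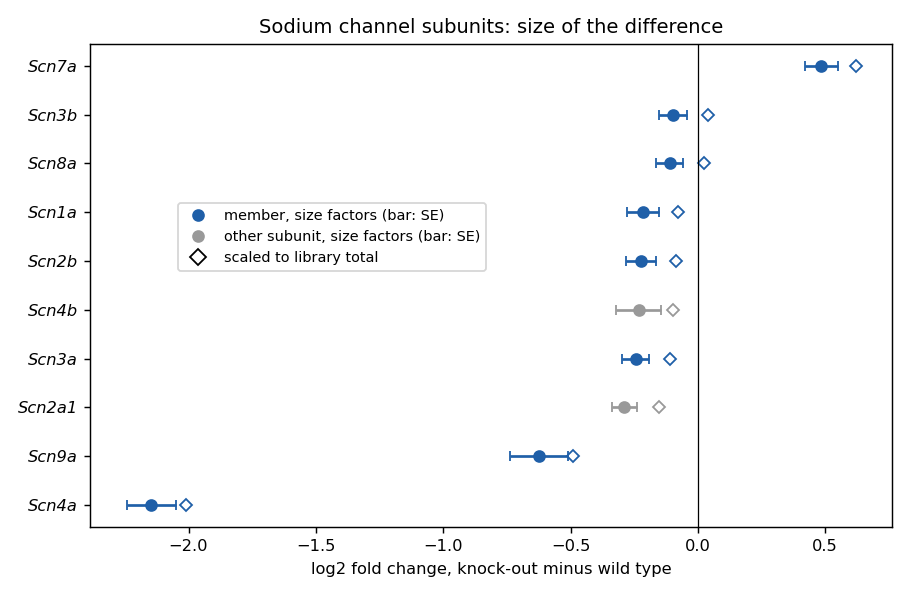
Log2 fold change (knock-out minus wild type) of 10 tested sodium channel subunit genes; filled points are values with the authors' size factors and their SE, open diamonds the values with libraries scaled to their total, blue the 8 members and grey Scn2a1 and Scn4b. Scn4a (-2.15) and Scn7a (0.49) lie at the ends, and Scn3b and Scn8a change side of 0 with the scaling.

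Of the 6 other subunit genes, 4 were tested and all 4 fell (limma, adjusted p over all genes). Scn2a1, which is the older symbol of the neuronal alpha subunit gene Scn2a, fell from 1745 ± 65 to 1429.7 ± 87.3 normalized counts (log2 fold change -0.29, SE 0.05, adjusted p = 5.99e-05). With libraries scaled to their total, Scn2a1 was still called.

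Scn4b, another beta subunit gene, fell from 341 ± 17 to 293 ± 41 (-0.23, SE 0.09, adjusted p = 0.0406). Its call ended when any of the 5 wild-type replicates or knock-out replicate 3, 5 or 6 was left out (log2 fold changes of -0.25 to -0.16, limma adjusted p of 0.050 to 0.107). It also ended with total scaling (-0.10, adjusted p = 0.387) and with no filter on low values (adjusted p = 0.0556). Over all alternatives the adjusted p ranged from 0.0164 to 0.387. Scn10a and Scn11a, the alpha subunit genes of nociceptors, did not pass the filter, with 4 and 27 reads summed over the wild-type libraries and 2 and 33 over the knock-out libraries. For a library with no read of a gene, the upper limit is 3 reads, or between 2.61 and 3.59 normalized counts depending on the library. Of the 12 tested subunit genes, 11 had a lower mean in the knock-out with the authors' size factors. Of these 12, 8 are the members, which were chosen from this same comparison, so nothing is read from the count. With total scaling, Scn3b (0.04) and Scn8a (0.02) were not lower.

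Levels of different genes can be compared only per length, and the normalized count was divided by the exon length of each gene in GENCODE M21. In wild type, Scn1a was the highest alpha subunit gene (257 ± 16 normalized counts per kb, SD, n = 5), followed by Scn8a (192 ± 14), Scn2a1 (137 ± 5), Scn4a (76.9 ± 3.3), Scn3a (64.3 ± 2.7), Scn7a (60.3 ± 4.3) and, lower, Scn9a (14.0 ± 1.7). Among these genes, the library ranges overlapped only for Scn3a and Scn7a. In the knock-out, Scn7a (84.5 ± 6.2, SD, n = 6) moved up to position 4 and Scn4a (17.4 ± 2.8) down to position 6. The ranges of Scn1a (222 ± 23) and Scn8a (177 ± 13) overlapped there. Of the beta subunit genes, Scn2b stood at 422 ± 32 in wild type and Scn3b at 144 ± 5.

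The order depends on the length used. Per kb of coding sequence, Scn8a took position 1 and Scn1a position 2 in both genotypes, and Scn4a position 5 in wild-type and 7 in knock-out libraries. As a share of the summed exon-length-corrected level of the 10 alpha subunit genes, Scn4a made up 9.33% ± 0.45 in wild-type and 2.52% ± 0.48 in knock-out libraries, and Scn7a 7.31% ± 0.44 and 12.2% ± 0.7. Scn1a and Scn8a together led in both, with 31.2% ± 1.8 and 23.2% ± 1.7 in wild type and 32.0% ± 2.3 and 25.5% ± 1.8 in the knock-out.

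**Figure D3:**
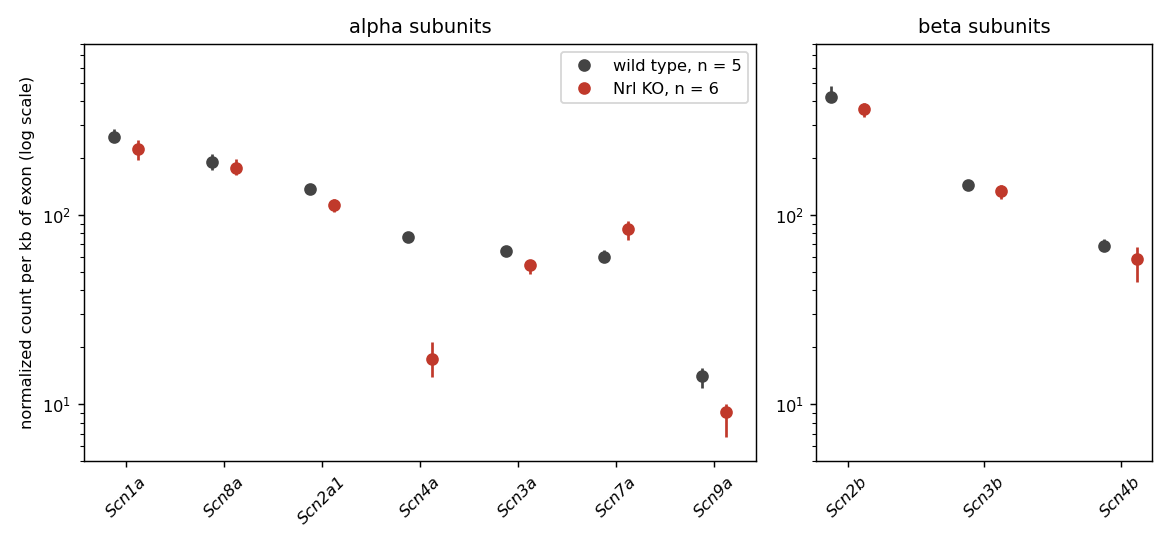
Mean normalized count per kb of exon (log axis) of 7 alpha and 3 beta subunit genes, in wild type (grey, n = 5) and Nrl knock-out (red, n = 6); vertical lines span the lowest to the highest library. Scn4a drops from position 4 to position 6 among the alpha subunits, while Scn1a and Scn8a lead in both genotypes.

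Within a genotype, libraries differed more than counting alone gives for the abundant members. The coefficient of variation of Scn1a was 6.10% among wild-type and 10.2% among knock-out libraries, where its read numbers alone would give 1.90% and 1.98%. For Scn8a it was 7.11% and 7.09%, against 1.85% and 1.86%. For Scn3b the spread was 3.24% among wild-type and 7.47% among knock-out libraries, against a counting error of 3.64% in each. For Scn4a it was 4.23% and 16.3%, against 4.37% and 8.91%, so in both genes only the knock-out spread exceeded the counting error.

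These deviations were partly shared between members. Wild-type replicate 1 was the highest wild-type library for Scn1a, Scn2b and Scn3b and the lowest for Scn8a. Knock-out replicates 1, 2 and 4 were the 3 highest knock-out libraries for Scn1a and Scn2b, and replicates 3, 5 and 6 the 3 lowest. The summed level of 14 retinal ganglion cell markers, measured beside them, followed a similar order, with 38775 in wild-type replicate 1 and 31327 to 34201 in the other wild-type libraries. It was 30590.0, 27323 and 30102 in knock-out replicates 1, 2 and 4 and 23549, 23769.9 and 24857 in replicates 3, 5 and 6. This order was not particular to ganglion cell markers. Müller glia and astrocyte markers summed to at least 129995 in knock-out replicates 1, 2 and 4 and at most 128571 in the others. Microglia markers split the same way. Bipolar, skeletal muscle, and oligodendrocyte and Schwann cell markers split the opposite way. Wild-type replicate 1 was also the highest wild-type library for the amacrine, rod, cone, Müller glia and microglia sums, and the lowest for the bipolar sum.

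Across the 6 knock-out libraries, Scn1a correlated with this sum at Pearson's r = 0.916 (exact two-sided permutation p = 0.0236, adjusted over the 8 members 0.133) and Spearman's rho = 0.829 (exact permutation p = 0.0583, adjusted 0.233). Without the 2 libraries farthest from the median sum, knock-out replicates 1 and 4, r was 0.610 over the 4 libraries left. Of these 4, only knock-out replicate 2 belonged to the high group. For Scn2b r was 0.899 (exact permutation p = 0.0333, adjusted 0.133), rho 0.829 (exact permutation p = 0.0583, adjusted 0.233), and r 0.9996 over those 4 libraries. For Scn9a r was 0.052 over all 6 libraries and -0.892 over the same 4, so the values over 4 libraries are no check of the relation. Over all 6 libraries, r of the other 6 members ranged from -0.659 for Scn8a to 0.682 for Scn7a, and no relation of the 8 passed after adjustment. The relation was looked for after the libraries' order had been seen, and for 1 marker sum out of several. The adjustment covers the 8 members and neither of these choices, so nothing is read from these p-values. The relation was not tested over the 5 wild-type libraries.

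**Figure D4:**
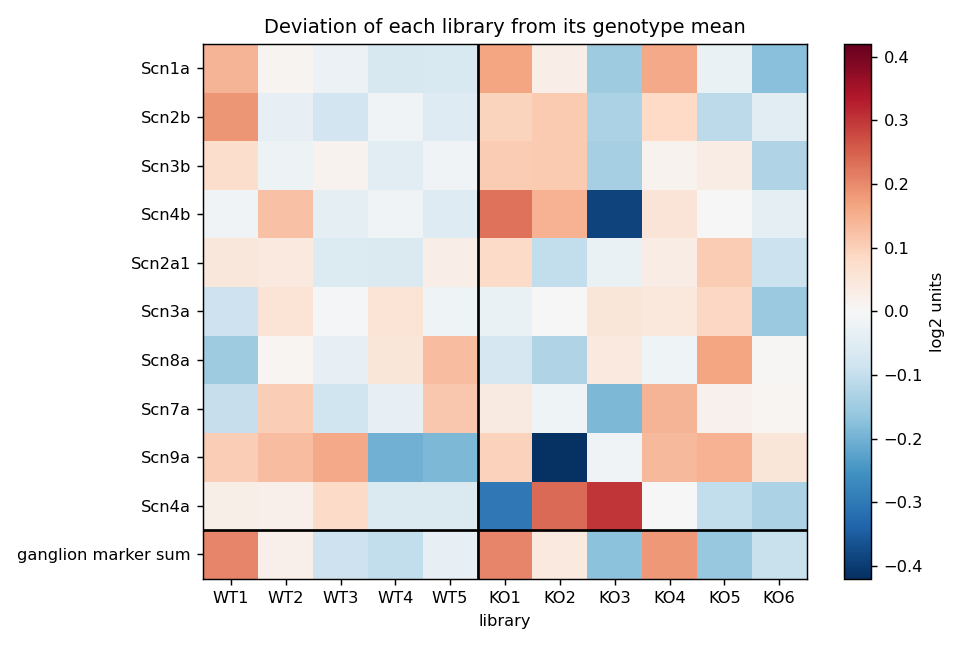
Deviation of each library from its genotype mean (log2 units, colour) for 10 tested subunit genes and, in the lowest row, the summed level of 14 retinal ganglion cell markers. Wild-type replicate 1 and knock-out replicates 1 and 4 are high for Scn1a and Scn2b and for the marker sum, and Scn8a is low in wild-type replicate 1. Sums of some other cell type markers, not drawn, shared or reversed this order.

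Between genotypes, 13 of the 14 ganglion cell markers fell and none rose (limma, median log2 fold change -0.34), and their sum went from between 31327 and 38775 to between 23549 and 30590.0. Of 14 amacrine cell markers 9 fell and none rose (median -0.25), with sums of 40776 to 45562 and 35032 to 37652. Of 14 bipolar cell markers 8 rose and 1 fell (median 0.25), with sums of 37132 to 45157 and 50743 to 59830.2, and of 6 horizontal cell markers 1 rose and 2 fell, with overlapping sums (2893 to 3045 and 2674 to 3263). These medians rest on the authors' size factors, and total scaling shifted the median over all tested genes up by 0.14. The part of these cell types in the lower levels of Scn1a, Scn2b, Scn3a and Scn9a was not tested.

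Genes whose products bind, anchor or regulate sodium channels were counted on 3 lists. All 4 genes of the fibroblast growth factor homologous factors, which bind the alpha subunit's tail inside the cell, were tested, and 3 fell. Fgf12 fell from 2241 ± 240 to 1822 ± 190 (-0.30, SE 0.08, adjusted p = 0.00469), Fgf14 from 466 ± 38 to 380.2 ± 32.6 (-0.29, SE 0.07, adjusted p = 0.00242) and Fgf13 from 857 ± 44 to 767 ± 31 (-0.16, SE 0.05, adjusted p = 0.0136). Fgf11 stood at 333 ± 11 and 294 ± 49 (adjusted p = 0.12). With libraries scaled to their total none of the 4 was called, at -0.16 for Fgf12, -0.16 for Fgf14 and -0.02 for Fgf13.

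Of 13 tested genes of the axon initial segment and node, where sodium channels cluster, 9 fell and 1 rose (median log2 fold change -0.16). These values rest on the authors' size factors. Total scaling shifted the median over all tested genes up by 0.14, nearly the size of this list's median, so the size of its fall depends on the scaling. Nfasc, which encodes the adhesion molecule neurofascin, fell from 7728 ± 725 to 3722 ± 327 (-1.05, SE 0.07, adjusted p = 6.78e-10). Nrcam, which encodes a related adhesion molecule and had the highest mean of the list over all 11 libraries, though not in wild type alone, rose from 3641 ± 205 to 8969 ± 533 (1.30, SE 0.05, adjusted p = 4.36e-14). Gldn, which encodes the nodal protein gliomedin, fell from 66.6 ± 10.8 to 38.4 ± 7.5 (-0.79, SE 0.16, adjusted p = 0.000483).

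Of 10 regulators of the channels 4 rose and 3 fell (median 0.07). Nedd4, which encodes a ubiquitin ligase and had the highest mean of these regulators, rose from 19083 ± 652 to 25029 ± 927 (0.39, SE 0.04, adjusted p = 7.36e-08). Rest, which encodes a repressor of neuronal genes, rose from 328 ± 46 to 405.2 ± 42.1 (0.31, SE 0.10, adjusted p = 0.0136), a call that ended when wild-type replicate 1 was left out together with knock-out replicate 2 (0.20; adjusted p from 0.000955 to 0.0578 over all alternatives).

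Of the members, Scn3a, Scn1a, Scn9a and Scn7a lie in 1 cluster on chromosome 2 with Scn2a, in the order Scn3a, Scn2a, Scn1a, Scn9a and Scn7a, with 3 other genes between Scn2a and Scn1a (RefSeq, GRCm38.p6). The adjacent genes Scn9a and Scn7a stood at -0.62 and 0.49 on the log2 fold change scale. Within the cluster, Ttc21b, a gene of transport in cilia, fell from 656 ± 44 to 466 ± 18 (-0.49, SE 0.06, adjusted p = 7.37e-07) and Csrnp3 rose from 2057 ± 25 to 2259 ± 95 (0.13, SE 0.04, adjusted p = 0.00824). Over the 7 tested neighbours of all members that are not sodium channel genes, 2 rose and 2 fell. On either side of Scn8a, Fignl2 rose from 165 ± 25 to 309 ± 48 (0.90, SE 0.11, adjusted p = 3.04e-06) and Slc4a8, a bicarbonate transporter gene, fell from 4147 ± 146 to 3624 ± 227 (-0.20, SE 0.05, adjusted p = 0.00153); the Slc4a8 call ended with total scaling (-0.06; adjusted p from 0.00027 to 0.282 over all alternatives).

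Scn1a, Scn3a and Scn9a share stretches of sequence with each other and with Scn2a, so reads could be split between them. Of all windows of 50 bases, the read length, in the longest coding transcript, 8.53% in Scn3a, 5.48% in Scn1a and 5.36% in Scn9a also occur on the same strand in another gene's transcript, most often those of Scn2a, Scn3a, Scn1a and Scn9a. The share was 0.0763% in Scn4a, 0.803% in Scn2b, 0.0527% in Scn8a and 0 in Scn7a and Scn3b. Gm13629, an antisense gene over Scn9a, was counted at 65.2 and 54.2 normalized counts on average, and because the strand setting of the counting is not given, its reads and those of Scn9a cannot be told apart. An antisense gene over Scn2b, Gm10684, had 1.41 and 0.462.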

How the data were processed

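mRNA of 5 wild-type and 6 Nrl knock-out retinas was sequenced as single-end reads of 50 bases, per the labels' protocols, which name polyA RNA in one place and ribosomal RNA removal in another. TopHat2 2.1.1 and HTSeq 0.6.0 are listed with DESeq and the build mm9 in the submitters' processing notes, in no stated order; the annotation and strand setting are not given. The authors deposited a signal per gene and library, read counts divided by a size factor, and per the file headers their log2 fold change and adjusted p-value (the p-values were not used). Every value was a whole multiple of 1 step per library to within 1e-06 of a read (100% of values), which gave back whole reads; counting limits cover counting error only.

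limma 3.58.1 in R 4.3.3 (trend, robust) was fitted to log2(normalized count + 1) over the 14584 genes with at least 10 normalized counts in at least 5 libraries, with genotype as the only term, and tested on simulated data. Low genes' fold changes are understated on this scale. Alternatives were edgeR 4.0.16, DESeq2 1.42.0, other scalings, pseudocounts and filters, a replicate block and leaving out libraries. The members, 4 partner lists and 11 marker lists were chosen with earlier results of these data known. Named genes were all subunits and homologous factors, the 3 called genes with the largest change and the most abundant gene of each other partner list, called neighbours, and the 2 nearest profiles of each member whose genotypes did not overlap. Some genes that this rule names are not reported here.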

Additional observations from a re-analysis of the deposited data

Results flagged for a closer look

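3 of the 52 groups of libraries examined held a library whose gap to the rest passed Dixon's 95% critical value (0.71 for 5 libraries, 0.625 for 6); chance flags about 1 group in 20. Wild-type replicate 1 was highest for Scn2b, at 2228 normalized counts against 1855 to 1941 in the other wild-type libraries. Knock-out replicate 2, the shallowest library, was lowest for Scn9a, at 86.3 against 114 to 128. Wild-type replicate 2 was highest for Scn4b, at 371 against 328 to 338.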

How the results depend on the processing

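edgeR, DESeq2, both other pseudocounts, both other filters, the block and each omission of libraries (that of wild-type replicate 1 with knock-out replicate 2 was chosen after seeing the data) kept the direction of all 8 members. With libraries scaled to their total, Scn3b (0.038) and Scn8a (0.025) reversed, and 5861 genes were called higher and 1711 lower, against 3448 and 3304. Leaving out each library in turn gave ranges of -2.21 to -2.09 for Scn4a, 0.46 to 0.52 for Scn7a, -0.67 to -0.54 for Scn9a, -0.25 to -0.18 for Scn1a and -0.15 to -0.08 for Scn8a. In all, 6752 genes were called, and between 6359 and 7572 under the other tools, scalings, pseudocounts, filters and the block. Replicate numbers did not pair the libraries: same-numbered deviations correlated between -0.131 and 0.225. With the replicate block 6791 genes were called and Scn4a stood at -2.12. No wild-type library shares the number of knock-out replicate 6, so that library adds nothing to the genotype difference in the block fit. The members' log2 fold changes there equal those with knock-out replicate 6 left out. Of 31 tested partner genes 24 were called, against 46.3% of all 14584 tested genes. With total scaling 17 of the 31 were called, against 7572 of all 14584. The number was 21 with the block and between 19 and 23 with a single library left out. The partner lists were chosen with earlier results of these data known, so nothing is read from these counts. The depth limits Scn9a, Scn10a and Scn11a most.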
